A study of Mus musculus with 8 samples.

Results

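The regions described here are stretches of RNA with an m6A peak in both KO macrophage samples and in neither WT sample, called KO-only regions below. They were chosen by the presence and absence of peaks. Each mouse had its own list, WT-1 and WT-2 for the WT mice and KO-1 and KO-2 for the KO mice. Same-strand peaks of these 4 lists sharing 1 bp or more were joined, which gave 12350 merged regions. Of these, 765 (6.19%) had KO-1 and KO-2 peaks and none of WT-1 or WT-2. The reverse side of this split, a peak in both WT lists only, held 410 regions (3.32%). The 4 lists can be split into pairs in 3 ways, and the sides of the other two splits held 295 regions for WT-1 with KO-1 (2.39%), 374 for WT-2 with KO-2 (3.03%), 306 for WT-1 with KO-2 (2.48%) and 324 for WT-2 with KO-1 (2.62%). Since the peaks themselves selected the regions, these counts are a description, and nothing was tested on them.

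The cells were bone marrow-derived macrophages (BMDMs) of C57BL/6 mice aged 8 weeks, grown for 7 days with 40 ng/mL M-CSF, and the sample labels name no treatment after that. WT mice were *Mettl3*fl/fl Lyz2+/+ and KO mice *Mettl3*fl/fl Lyz2cre/+ (labelled *Mettl3*-/-), so both genotypes carried the floxed allele and KO mice also lacked 1 normal copy of *Lyz2*. Lyz2-Cre is active across myeloid cells, granulocytes included, and deletion by it is not complete, so some METTL3 may remain in KO cells. Each genotype had 2 mice, and each mouse gave an m6A IP and an input library, 8 libraries in all.

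METTL3 is the catalytic subunit of the complex that places N6-methyladenosine (m6A) on messenger RNA, with METTL14 as its partner and WTAP, VIRMA and ZC3H13 among its accessory proteins. The complex prefers an A in a short sequence of which GGAC is the best known form, and m6A is found mostly in long internal exons and around the stop codon. Reader proteins of the YTH family bind the mark and act on the decay, translation or splicing of the RNA. In MeRIP-Seq, RNA fragments bound by an anti-m6A antibody are sequenced beside the input RNA, and a peak is a stretch enriched in the IP. A peak absent from a list is not a measured level of 0, and without read counts less methylation and less RNA of a gene cannot be told apart. *Mettl3* itself had no peak in any list, so the peaks give no check of the deletion.

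The 2 KO lists shared peak ends far more often than any other pair of lists, and this bears on all that follows. A total of 1201 peaks had the same start and the same end in KO-1 and KO-2, which is 18.8% of the KO-1 list and 17.97% of the KO-2 list. The other 5 pairs of lists shared between 276 (WT-1 with WT-2) and 426 (WT-1 with KO-2) such peaks. Depending on the list, 43.1% to 51.5% of peaks had an end on an annotated exon edge, where equal ends are easily reached. Of the shared peaks with neither end on an annotated exon edge, however, the KO pair held 186 and the other pairs between 7 and 14. Their scores, which the authors give on a scale that is not stated, were not copied. In the KO pair a shared peak had the same score in 323 cases. Each of these scores was 3100, a value at which the lists pile up.
Among the KO-only regions, 238 (31.1%) held a peak with identical ends in KO-1 and KO-2, and 333 (43.5%) a pair with both ends within 10 bp. On the other 5 sides identical ends were found in 3.09% to 8.82% of the regions. The likeness was not limited to KO-only regions, since the KO pair had identical ends in 31.0% of the 2203 regions of all 4 lists and the other pairs in 9.99% to 14.2%. The median distance between the midpoints of the paired peaks was 12.5 bp in KO-only regions and 63.5 to 97.0 bp on the other sides. The KO lists can therefore not be read as independent of each other in the way the other pairs can. Why they share ends was not tested, and with 1 pair of KO lists this likeness and the genotype cannot be told apart. Without the regions of identical ends the KO-only side held 527 regions, the WT-only side 382 and the sides across genotypes 274 to 346. Without those whose ends lay within 10 bp, the counts were 432, 350 and 254 to 323.

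KO-only regions were of moderate score. Their median score was 492.03 in KO-1 and 444.66 in KO-2, at a median percentile of 45.1 and 34.5 among all peaks of the same list, where the percentile gives the share of peaks with a lower score, with tied scores, as at 3100, set at the middle of their ranks. Within KO-1 this was above the sides across genotypes, at 31.7 with WT-1 and 24.2 with WT-2. Within KO-2 it was below them, at 36.1 with WT-1 and 38.0 with WT-2, so the lists ranked KO-only regions differently. Regions of all 4 lists had far higher scores, with median percentiles of 78.3 in KO-1 and 78.2 in KO-2. They were also wider, with a median of 1043 bp against 488 bp. Scores of KO-only regions ran from 50.88 to 3178.1 in KO-1 and from 51.32 to 3221.92 in KO-2. A score of 3100 or more was reached by 24 regions in KO-1, by 39 in KO-2 and by 10 in both, and 114 regions stood above the 50th percentile in both lists. Over all KO-only regions the median difference between the percentiles of KO-1 and KO-2 was 23.6, and that between the lists of the other sides 19.2 to 23.5. The regions were 300 to 2347 bp wide and lay on all chromosomes but Y, with 352 on the plus and 413 on the minus strand. They made up between 3.89% (chromosome 19) and 8.64% (chromosome 17) of the merged regions of a chromosome other than Y.

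Of the 765 regions, 730 touched exons of protein-coding genes, 688 genes in all, and 609 had their centre, the mean midpoint of the KO peaks, in an exon of the longest coding transcript. These 609 lay in the coding sequence more often than the regions of any other side. The CDS held 341 of them (56.0%, Wilson 95% interval 52.0% to 59.9%), the 3′-UTR 231 (37.9%) and the 5′-UTR 37 (6.08%). WT-only regions were the opposite, with 32.6% (28.0% to 37.6%) in the CDS and 65.2% in the 3′-UTR. The sides across genotypes lay between, with a CDS share of 45.0% for WT-1 with KO-1, 38.7% for WT-2 with KO-2, 47.9% (41.8% to 54.0%) for WT-1 with KO-2 and 42.5% for WT-2 with KO-1. Intervals here cover counting error only, and regions are not replicates of a genotype. The CDS share was 44.6% in all merged regions placed in this way and 60.5% in regions of all 4 lists. A high CDS share was thus also a feature of the high-scoring regions shared by all mice. Among KO-only regions it was 56.9% in those with identical ends and 55.6% in the rest.
The stop codon was covered less often than on the other sides, though not in every setting. It lay in 173 KO-only regions (28.4%, 25.0% to 32.1%), against 45.0% of WT-only regions, 31.1% to 52.3% on the sides across genotypes and 52.3% in regions of all 4 lists. Among the upper 50% of peaks by score its share was 40.9% in KO-only regions and 34.5% for WT-1 with KO-1, and in genes with 1 coding transcript 35.5% and 27.7%, so the order of these sides turned. KO-only regions were also narrower, with a median of 488 bp against 592 bp for WT-only and 543 to 643.5 bp across genotypes. A narrow region covers a given codon less often. With all peaks reduced to 300 bp the share was 18.1% in KO-only and 24.3% in WT-only regions. It was 21.02% to 30.1% across genotypes, so KO-only regions stayed lowest, but by less. The median distance of the region centre to the stop codon was 974 nt in KO-only regions, 497 nt in WT-only regions and 396 to 836 nt on the sides across genotypes. Within the CDS the 341 regions were spread evenly: 20.2% lay in its first 2 of 10 equal bins, 60.1% in the middle 6 and 19.6% in the last 2. WT-only regions of the CDS leaned to its end, with 8.47% in the first 2 bins and 31.4% in the last 2. Evenness was not a trait of KO-only regions alone, since the first and last 2 bins held 17.8% and 23.3% of all merged regions of the CDS, and 22.0% and 17.9% of those of WT-1 with KO-2. In the 3′-UTR, 42.4% of KO-only regions lay in the first 2 bins and 7.79% in the last 2, near the 39.2% and 10.7% of all merged regions.

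KO-only regions also lay in internal exons more often than the regions of the other sides, but less often than regions of all 4 lists. An internal exon held 195 of the 609 (32.0%, 28.4% to 35.8%), the last exon 331 (54.4%), the first exon 57 (9.36%) and the only exon of a gene 26 (4.27%). WT-only regions lay in internal exons in 17.4% and in last exons in 77.3% of cases, and the internal share of the sides across genotypes was 19.3% to 24.9%. It was 24.8% in all merged regions and 36.5% in regions of all 4 lists. With a KO list left out of the rule, the internal share of KO-only regions was 24.0% (without KO-1) and 26.8% (without KO-2). The excess over all merged regions was thus lost or small there. Of the 195 internal exon regions, 136 lay in exons of at least 400 bp, a smaller part than the 1953 of 2596 in all merged regions and the 679 of 749 in regions of all 4 lists. Among the sides this was 49 of 63 for WT-only, 40 of 58 for WT-1 with KO-1, 43 of 64 for WT-1 with KO-2, 55 of 64 for WT-2 with KO-2 and 50 of 60 for WT-2 with KO-1, so KO-only regions were like the other sides without WT-2. The internal share was 41.4% in the KO-only regions with identical ends and 28.0% in the rest, so this share moved with identical ends where the CDS share did not. On the other sides few regions had identical ends, and the internal share moved in some of them. It was 48.0% of 25 WT-only regions with identical ends and 15.1% of the rest, 52.6% of 19 and 21.9% for WT-1 with KO-1, and 85.7% of 7 and 18.8% for WT-2 with KO-1, and on these sides the CDS share moved as well. The change was small for WT-1 with KO-2 (27.3% of 22 and 24.7%) and WT-2 with KO-2 (25.0% of 24 and 18.9%). The internal share also moved with peaks that equal a whole exon. These made up 8.76% of the KO-1 and 9.67% of the KO-2 peaks of KO-only regions. In WT-only regions they were 6.10% of the WT-1 and 6.59% of the WT-2 peaks. On the sides across genotypes they were 3.70% to 9.15%, and in the whole lists 10.5% for KO-1 and 12.2% for KO-2. Without regions holding such a peak the internal share was 27.1% for KO-only, 13.0% for WT-only and 17.1% to 19.5% for the sides across genotypes. In genes with a single coding transcript, where the exon is certain, it was 18.4% of 152 KO-only regions, 8.82% of WT-only regions and 4.88% to 17.0% across genotypes.
The sides with WT-2 differed from those without it in several of these features. They had the 3 lowest CDS shares of the 6 sides, and the 3 sides without it the 3 highest. By list, however, WT-2 was close to WT-1, with 47.4% and 49.3% of placed peaks in the CDS against 54.6% in KO-1 and 52.1% in KO-2, and 4.63% and 5.26% in first exons. Among the upper 50% of peaks by score the order did not hold, since the CDS share was 59.4% for WT-2 with KO-1, 57.0% for WT-1 with KO-1 and 52.0% for WT-1 with KO-2. The first exon held 9.36%, 11.8% and 6.23% of the regions on the sides without WT-2 (KO-only, WT-1 with KO-1 and WT-1 with KO-2), and 2.49% to 5.14% on those with it. The same order was seen for regions that lay only in exons of non-coding transcripts of a coding gene, such as retained introns. There were 57 of these among the KO-only regions (7.45%), 6.44% and 5.56% on the other sides without WT-2, and 1.54% to 2.14% on those with it. Over whole lists, 1.96% of the WT-2 peaks and 3.34% to 3.98% of the peaks of the other lists were of this kind. Its part in the contrast of KO-only with WT-only regions was not tested. When WT-2 was left out of the rule, the CDS share of KO-only regions was 55.5%, and it was 58.4% without WT-1. It was lower without a KO list, at 44.0% without KO-1 and 47.5% without KO-2. All merged regions had 44.6% and those of WT-1 with KO-2 47.9%, so the high CDS share was not seen with a single KO list.

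The sequence around the KO-only regions was not special. GGAC stood on the transcript strand within the 200 bp around the centre of 462 regions (60.4%, 56.9% to 63.8%), against 60.6% of all merged regions, 64.4% of WT-only regions and 57.2% to 66.3% on the sides across genotypes. The longer form GGACT was found in 24.2% of KO-only regions and in 26.1% of all merged regions, with 30.7% in WT-only regions. GAAC, AGAC and AAAC were found in 57.4%, 62.1% and 56.7% of KO-only regions and in 55.6%, 61.6% and 55.6% of all merged regions. The median GC content of the window was 49.5%, against 48.5% over all regions.
To show the motif in place, sequences of 61 bases are given from regions that lie wholly in a coding exon and hold GGACT, which is in capitals. They are 4 of the highest-ranked such regions on the chromosomes searched, by the lower of the KO-1 and KO-2 percentiles. All are read from GRCm38 on the transcript strand, 5′ to 3′, at the GGACT nearest the region centre. All were added after their values were seen. *Nes* encodes the intermediate filament nestin (plus strand, chr3:87976884-87976944), and *Abcd2* a peroxisomal transporter of fatty acids (minus strand, chr15:91191155-91191215). The *Nes* region ends at 87976928, so the last bases of the *Nes* sequence lie outside it. *Prdm1* encodes the transcriptional repressor BLIMP-1 (minus strand, chr10:44442029-44442089) and *Cenpf* a kinetochore protein (minus strand, chr1:189657814-189657874).
Nes: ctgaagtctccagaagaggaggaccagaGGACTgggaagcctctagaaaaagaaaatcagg
Abcd2: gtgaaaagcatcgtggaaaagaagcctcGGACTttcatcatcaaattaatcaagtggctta
Prdm1: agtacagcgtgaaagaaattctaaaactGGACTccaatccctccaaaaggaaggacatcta
Cenpf: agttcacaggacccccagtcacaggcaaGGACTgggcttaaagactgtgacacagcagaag
In *Cenpf* and *Abcd2* the GGACT lay 11 and 38 nt from the region centre, in *Prdm1* 76 nt, and in *Nes* 392 nt away. A match to these letters is not a mapped m6A site.

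Many genes with a KO-only region also had a WT peak at another place, a share within the range of the other sides. Of the 688 genes with a KO-only region (9.76% of the 7051 genes with any region), 396 had a WT peak elsewhere on the gene (57.6%, 53.8% to 61.2%), 216 of them in both WT lists, and 292 had none. Of the 389 genes with a WT-only region (5.52%), 45.0% had a KO peak elsewhere, and on the sides across genotypes the share was 47.9% to 58.7%. A WT peak lay within 500 bp of 90 KO-only regions (11.8%), and the share on the other sides was 10.2% to 13.1%. Within 100 bp the share was higher in KO-only regions (29 regions, 3.79%) than on the other sides (0.976% to 2.29%), so some KO-only regions lay beside a WT peak. Both kinds of region were found on 21 genes, among them *Zeb2*, *Zbtb20*, *Tob2* and *Zc3h13*.
Just inside the rule, KO-only regions of *Fam135a*, *Trp53bp1* and *B3gnt5* lay 1, 2 and 4 bp from a WT peak. Their scores were 485.65 in KO-1 and 3100 in KO-2 for *Fam135a*, 1246.38 and 364.67 for *Trp53bp1*, and 2344.92 and 721.25 for *B3gnt5*. Just outside it, of the 1064 regions of both KO lists and 1 WT list, those with the least overlap shared 6, 6 and 7 bp with the WT peak. The first lay outside coding exons, on chromosome 10 from 11609257 to 11610092, with a score of 580.57 in KO-1, 119.96 in KO-2 and 1107.83 in WT-2. The others lay on *Kctd7* (80.1 in KO-1, 1814.99 in KO-2 and 564.96 in WT-2) and *Zfp518a* (2229.9 in KO-1, 638.16 in KO-2 and 245.34 in WT-1). Only 10 of the 1064 shared 100 bp or fewer, so few regions fell outside by a narrow overlap.

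The regions described next were chosen by the lower of their KO-1 and KO-2 percentiles and are among the 12 of highest rank. Positions are in GRCm38. On *Kif5b*, the heavy chain of the conventional kinesin motor, both KO lists had the same peak (minus strand, chromosome 18, 6213446 to 6214087), with a score of 3100 in KO-1 and 3216.25 in KO-2. It lay only in exons of non-coding transcripts of the gene, and *Kif5b* had no WT peak. *Man1b1*, a mannosidase of the endoplasmic reticulum, had scores of 3131.85 in KO-1 and 3100 in KO-2 in the 3′-UTR of its last exon (plus strand, chromosome 2, 25351401 to 25352213) and no WT peak. The scores of the next 8 regions were 3100 in both KO lists. Among these, *Ssb*, which encodes the La protein that binds new transcripts of RNA polymerase III, and *Gimap9*, a GTPase of the immunity-associated family, had no WT peak, and each region covered the stop codon. *Stk4*, the Hippo pathway kinase MST1, and *Ppp1r9b*, which encodes spinophilin, had regions in exons of other coding transcripts and WT peaks elsewhere. The regions of *Fam171a1* over the stop codon, of *Zfp777* in coding exon 2 and of *AW146154* in the 3′-UTR lay 114, 52 and 63 bp from the nearest WT peak. *Cwf19l2* had a region in exons of non-coding transcripts only and a peak elsewhere in each WT list.
*Satb1*, an organizer of chromatin loops, had scores of 2828.12 in KO-1 and 3100 in KO-2 over the stop codon and no WT peak. Of the genes named here, 5 had no WT peak at all: *Kif5b*, *Man1b1*, *Ssb*, *Gimap9* and *Satb1*. Over all 688 genes with a KO-only region, 292 (42.4%) had none, so this was not particular to the highest ranks.

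A gene rarely held several KO-only regions: 648 genes had 1, 38 had 2, and 2 had 3. The other sides held fewer regions and also fewer genes with several. For WT-only 10 of 389 genes had 2, and for WT-2 with KO-1 10 of 304. For WT-1 with KO-1 9 of 276 had 2 and 1 had 3. For WT-2 with KO-2 and WT-1 with KO-2 4 genes each had 2. A side with more regions can hold more such genes, so these counts do not set KO-only regions apart. The 2 genes with 3 were *Pcnt*, which encodes the centrosome protein pericentrin, and *Chd7*, a chromatin remodeller. In *Pcnt* (minus strand, chromosome 10) the regions lay in coding exons 12 and 24 and over the stop codon in exon 42. Their scores were 580.57, 357.39 and 157.73 in KO-1 and 695.92, 838.88 and 384.92 in KO-2, all in the lower or middle range of the lists. *Chd7* (plus strand, chromosome 4) had regions in coding exon 2, where the region reached into the 5′-UTR, in exon 3 and in the 3′-UTR. The KO-1 scores of these were 1599.31, 2430.98 and 60.38 and the KO-2 scores 981.78, 317.84 and 2966.64, so the lists ranked the *Chd7* regions in opposite order. Both genes also had peaks in both WT lists.
Genes with 2 regions and no peak in a WT list included *Dnajc25*, a co-chaperone of the HSP70 system, and *Nes*. The *Dnajc25* regions lay in coding exon 3 and over the stop codon and had identical ends in the KO lists, with scores of 655.17 and 1083.78 in KO-1 and 648.06 and 941.18 in KO-2. The regions of *Nes* lay in its long last exon, with scores of 1861.01 and 765.28 in KO-1 and 2224.07 and 110.97 in KO-2. *Zeb2*, a transcription factor that maintains tissue macrophage identity, had 2 regions in exons of non-coding transcripts only, with scores of 1472.75 and 2679.83 in KO-1 and 2149.09 and 286.28 in KO-2. It also had 6 peaks in WT-1 and 4 in WT-2. *Zbtb20*, a repressor of the BTB zinc finger family, *Dst*, a linker of cytoskeletal filaments, *Bdp1*, a subunit of TFIIIB, *Hivep3*, a large zinc finger protein, and *Tnrc18* likewise had WT peaks elsewhere.

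Start codons and 5′-UTRs were a minor place. The start codon was covered by 64 of the 609 placed regions (10.5%, 8.32% to 13.2%), against 10.1% of all merged regions, 6.08% of WT-only regions and 8.16% to 13.0% on the sides across genotypes. The highest-ranked region of either kind was on *Itprid2*, with scores of 2718.75 in KO-1 and 3100 in KO-2 in exon 1. *Lig3*, a DNA ligase of base excision repair, had 1353.82 and 3100 in exon 2, and the kinase gene *Cdk11b* 1422.79 and 3100 in exon 1. *Mepce*, which caps the 7SK RNA, had 1009.84 and 3100, with 387 of the 425 bp of its region in the 5′-UTR. *Wrap53*, which guides telomerase RNA, had 1361.85 and 1299.71. The region of *Vcan*, the matrix proteoglycan versican, filled the whole of exon 1 within the 5′-UTR, with scores of 990.22 and 3171.47. *Cdk11b*, *Lig3* and *Wrap53* had no WT peak.

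By function, genes with a KO-only region held many zinc finger and DNA repair genes. They held few Toll-like receptor, interferon, macrophage transcription factor and surface receptor genes, though several small lists were as rare on other sides. Polarization effectors and cytokines, a short list, were not among the few. Counts are read against the 9.76% of all genes with a region that had a KO-only one and the 5.52% that had a WT-only one. Of 346 zinc finger genes (Zfp, Zbtb, Zkscan and Zscan) with a region, 63 (18.2%) had a KO-only and 21 (6.07%) a WT-only region. They made up 9.16% of the genes with a KO-only region, 4.91% of all genes with a region and 3.94% to 7.07% of the genes of the other 5 sides. *Zscan29* had scores of 2511.36 in KO-1 and 1785.74 in KO-2 in coding exon 5, and *Zfp27* 1988.59 and 1515.99 in the CDS of its last exon. These genes have many near copies, and reads shared between copies could be placed on more than 1 of them.
Of 52 DNA repair and mitosis genes, 11 (21.2%) had a KO-only and 2 (3.85%) a WT-only region, and 1 to 3 had a region of a side across genotypes. As a share of the genes of a side this was 1.60% for KO-only, 0.514% for WT-only and 0.337% to 0.987% across genotypes. The 11 KO-only genes were *Atm*, *Lig3*, *Cenpj*, *Cenpf*, *Kif14*, *Fancm*, *Topbp1*, *Trp53bp1*, *Slx4*, *Mlh3* and *Brca2*. *Atm*, the kinase that signals DNA double-strand breaks, had no WT peak and scores of 2657.44 in KO-1 and 2249.92 in KO-2 over its stop codon (minus strand, chromosome 9, 53439583 to 53439929). *Cenpj*, which builds centrioles, had 1181.61 and 1891.88 over the stop codon, and *Cenpf* 912.33 and 3100 in coding exon 12. Among 29 kinesin and myosin genes 6 had a KO-only region (20.7%), all of them kinesins, and none a WT-only one, but 3 had a region of WT-2 with KO-1. As a share of the genes of a side this was 0.872% for KO-only and 0.987% for WT-2 with KO-1. *Kif15* and *Kif14*, motors of the spindle and of cytokinesis, had scores of 766.07 and 646.2 in KO-1 and 2725.82 and 2343.62 in KO-2 and no WT peak, and *Kif13a* had 308.95 in KO-1 and 291.78 in KO-2. *Kif14* counts in both lists.
Of 85 chromatin modifier and coregulator genes, 16 (18.8%) had a KO-only and 5 (5.88%) a WT-only region. As a share of the genes of a side this list was no larger in KO-only regions (2.33%) than on the sides of WT-1 with KO-1 (3.99%) and WT-1 with KO-2 (3.70%). *Tet2*, which oxidizes 5-methylcytosine in DNA, had scores of 2265.02 in KO-1 and 1189.4 in KO-2 in coding exon 3, 187 bp from a WT peak. *Kmt2d*, a histone H3 methyltransferase, had 836.78 and 1521.15 in coding exon 12. *Brpf3*, a scaffold of histone acetyltransferases, had 1438.52 and 1360.05 in exon 8, and *Brd9*, a SWI/SNF subunit, 1003.34 and 2682.08 with no WT peak.

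Genes of immune signalling and of the macrophage lineage were few, polarization effectors and cytokines apart. A KO-only region was found on 1 of 38 Toll-like receptor and NF-κB genes (2.63%), 1 of 29 interferon and JAK-STAT genes (3.45%), 1 of 36 macrophage transcription factor genes (*Zeb2*, 2.78%) and 1 of 23 macrophage surface receptor genes (4.35%). WT-only regions lay on 0, 4, 2 and 4 genes of these lists. The members were *Nfkbib*, which encodes the inhibitor IκBβ (scores of 267.12 in KO-1 and 216.1 in KO-2), *Stat5a*, a transcription factor downstream of cytokine receptors (1307.9 and 551.84), and *Cd80*, a costimulatory ligand of T cells (319.64 and 147.88). The *Nfkbib* and *Cd80* peaks each equalled a coding exon and had identical ends in both KO lists. Of the 21 cholesterol and LXR genes and the 26 BCL2 family and caspase genes with a region, none had a KO-only one, and 4 and 3 had a WT-only one. Such low counts were also found on sides across genotypes: no cholesterol and LXR gene had a region of either side of WT-2 with a KO list, and no interferon, surface receptor or lysosome gene one of WT-2 with KO-2. Lysosome and autophagy genes had 1 KO-only gene, *Vps13d* (144.49 and 1526.08), and 5 WT-only genes of 33.
Of 10 genes of polarization effectors and cytokines, *Vegfa* and *Ptgs2* had a KO-only region (20%, in a short list) and none a WT-only one. *Ptgs2*, which encodes the cyclooxygenase COX-2, had low scores of 158.71 in KO-1 and 147.43 in KO-2 over its stop codon and no WT peak. *Vegfa*, the endothelial growth factor, had 502.7 and 569.43 and WT peaks elsewhere. Of 53 Ras and MAP kinase genes 4 (7.55%) had a KO-only and 7 (13.2%) a WT-only region, and 6 had a region of WT-2 with KO-1. *Rasgrp1*, an exchange factor of Ras, had 1396.06 and 1093.85, *Dusp5*, a phosphatase of ERK, 705.84 and 3100, and *Rps6ka5*, the kinase MSK1, 1936.02 and 251.67, all over the stop codon. The region of *Dusp5* lay 12 bp from a WT peak. *Gab2*, a docking protein, had 388.84 and 180.73 in coding exon 2. In PI3K, FOXO and mTOR signalling 3 of 31 genes (9.68%) had a KO-only and 2 a WT-only region. *Rps6kb1*, the S6 kinase, had 209.22 and 476.65, *Pik3r5*, a regulatory subunit of PI3Kγ, 96.14 and 875.91, and *Phlpp2*, a phosphatase of AKT, 826.62 and 84.92.

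The m6A machinery was touched in 3 genes. Of 10 writer and eraser genes with a region 2 had a KO-only one, and of 9 reader genes 1. *Zc3h13*, a part of the writer complex, had scores of 775.03 in KO-1 and 3100 in KO-2 over the whole of coding exon 9 (plus strand, chromosome 14, 75321597 to 75321904), beside 4 peaks elsewhere in each WT list. *Zcchc4*, which methylates ribosomal RNA, had 111.42 and 128.19. *Ythdf3*, a cytoplasmic reader, had 1670.59 and 992.83 over its start codon in exon 1, with WT peaks elsewhere. Of 36 genes of mRNA decay, 4 (11.1%) had a KO-only and 5 (13.9%) a WT-only region. *Edc3*, an enhancer of decapping, had 350.15 and 828.32, *Cnot10*, of the CCR4-NOT deadenylase, 1036.95 and 150.4, and *Smg5*, of nonsense-mediated decay, 651.58 and 70.71, all with no WT peak. *Tob2*, a partner of that deadenylase, had 121.35 and 511.84 in the 5′-UTR.
The other families were near or below the background. KO-only regions lay on 7 of 139 solute carrier genes (5.04%), 9 of 112 RNF, TRIM and USP genes (8.04%), 8 of 75 genes of helicases and of SR, hnRNP and RBM proteins (10.7%) and 4 of 66 Rab GTPases and their regulators (6.06%). Among the solute carriers, *Slc40a1*, the iron exporter ferroportin, had scores of 2268.9 in KO-1 and 344.03 in KO-2 in coding exon 7, with WT peaks elsewhere. *Dhx34*, a helicase of nonsense-mediated decay, had 3100 and 823.93 in a 5′-UTR exon that the peak equalled. *Hnrnpu*, a nuclear RNA-binding protein, had 298.75 and 762.34 over its start codon. *Trim30d* had 1407.32 and 1457.49, and *Rab11fip2*, an effector of Rab11, 2436.37 and 1027.4.

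None of the cell type markers looked at had a KO-only region, but few of them had a peak in any list. Only 9.76% of all genes with a region had a KO-only one, so none among so few markers is near that background. Of 9 macrophage markers only *Mertk* had a peak in all 4 lists, *Fcgr1* had peaks in both WT lists and none in a KO list, *Cd14* had 1 in WT-2, and the other 6, among them *Adgre1*, *Itgam* and *Csf1r*, had none. Of 3 T cell markers *Cd4* had 1 peak in each WT list, of 4 granulocyte markers *Csf3r* had 1 in WT-1 and in KO-1, and the 3 B cell markers had none. Peaks are not expression levels, so they give no check of the cell type.

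Outside exons of coding genes lay 35 of the 765 KO-only regions, against 385 of all 12350 merged regions, 11 of the 410 WT-only regions, and from 5 of the 306 of WT-1 with KO-2 to 15 of the 374 of WT-2 with KO-2 on the sides across genotypes. The 35 held a cluster on 1 RNA, and whether other sides held one there was not analysed here. *Kcnq1ot1*, the long antisense RNA of the imprinted *Kcnq1* locus on chromosome 7, was the one name that occurred more than once. Its 5 regions lay on the minus strand between 143224564 and 143258514. Their scores were 2282.67, 1435.62, 931.05, 250.36 and 1166.02 in KO-1 and 352.57, 3100, 82.32, 55.74 and 179.33 in KO-2, in order of position. The *Kcnq1ot1* regions thus mostly ranked above the middle in KO-1 and low in KO-2. A WT peak lay 653 bp from the first and 832 bp from the second of them by position. Pseudogenes held 11 regions, such as *Morf4l1-ps1* (1906.47 and 3100), introns of coding genes 7, and 8 had no annotated gene on their strand. Reads of a processed pseudogene can come from its parent gene, so the regions on the 8 processed and 2 transcribed processed pseudogenes are uncertain. The other lay on *Zfp125*, annotated as a transcribed unprocessed pseudogene.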

How the data were processed

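The authors deposited 1 peak list per mouse with position, strand and a score; replicates were not pooled. The score has the form of a MACS peak score, but the caller, its settings and the depth are not given in the sources used here. The submitters' processing notes name cutadapt 1.9.3, HISAT2 2.0.4 and mm10, the same build as GRCm38. Peaks were merged by overlap on the same strand, assigned to the gene of GENCODE M21 with the most exonic bases, and placed by their centre on its longest coding transcript. Sequences came from the RefSeq GRCm38 genome, and none were taken from chromosome 18. Shares have Wilson 95% intervals. Named regions are the 12 of highest rank, genes with several regions (at most 10), at most 4 genes per list, 6 regions at start codons or in 5′-UTRs and those next to the rule. Members, gene lists and rules were chosen with earlier results of these data known. The merging was tested on simulated peaks. Python 3.11.15, scipy 1.17.1 and pysam 0.24.0 were used.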

Additional observations from a re-analysis of the deposited data

How the results depend on the processing

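With 2 mice per genotype, no read counts and KO lists that share peak ends, the counts describe these lists and not the genotypes. No test was run on these counts, so no paired analysis was made.
Restricted to the upper 50% of each list by score, the rule gave 320 KO-only and 164 WT-only regions. When a peak had to be among that 50% to count as present, and any listed peak counted against absence, it gave 114 and 67. These settings hold fewer peaks by construction. In the first of them the CDS share was 64.2%, the stop codon share 40.9%, the internal exon share 37.2% and the share of genes with a WT peak elsewhere 47.0%. In the second these were 62.0%, 32.6%, 37.0% and 68.9%, and the GGAC share was 65.8%. Why the shares moved was not tested.
Leaving out 1 list moved KO-only regions to between 1242 (without WT-2) and 2340 (without KO-1) and WT-only regions to between 647 (without KO-1) and 2127 (without WT-1), since presence or absence then had to hold in 1 list. The CDS share ran from 44.0% without KO-1 to 58.4% without WT-1, the stop codon share from 21.6% to 36.3%, the internal exon share from 24.0% to 34.6%, and the share of genes with a WT peak elsewhere from 44.3% to 56.1%.
With peaks reduced to 300 bp the stop codon share was 18.1%, as narrower regions cover fewer codons, and that of WT-only regions was 24.3%. The share of genes with a WT peak elsewhere was 64.5% there. Where a gene had only 1 coding transcript, the stop codon share was 35.5% and the internal exon share 18.4%; the cause was not tested. GGAC was found in 38.2% of windows of 100 bp and 86.5% of whole exonic regions, and GGACT in 24.2% of 200 bp windows. A peak in both WT lists was found on 31.4% of the genes.
Of the alternatives chosen after seeing the data, leaving out regions whose peak equals an exon gave an internal exon share of 27.1%, leaving out identical peaks 28.0%, and leaving out peaks with ends within 10 bp 27.0% with 432 KO-only regions. The WT lists held 6159 and 6263 peaks and the KO lists 6378 and 6684. Cut to equal length they gave 626 KO-only and 432 WT-only regions, so the KO-only side was nearer to the WT-only side. Merging across gaps of 100 bp gave 739 and 417, and ignoring strand 764 and 411.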
